A study of Mus musculus with 2 samples.

Results

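Mouse chromosome 11 carried 3357 of the 29086 ELF1 peaks in the optimal list of CH12.LX cells (11.5%). The members were taken by position, as every optimal peak whose chromosome was 11, and the chromosome was chosen by its high peak count, so its count and density are a description with no test. CH12.LX is an immortalized B-cell lymphoma line of a female mouse, of strain B10.H-2aH-4bp/Wts in the labels. There was 1 group of 2 biological replicates of this line, both precipitated with an ELF1 antibody, and no second condition. The optimal list was made by the authors from both replicates together on the mm10 build. As a check of the cell type, 8 of 8 B cell marker genes had a peak within 1 kb of a start site, among them Cd79b (signal 257), Ebf1 (137) and Ikzf1 (69.1) on chromosome 11, against 0 of 5 T cell markers. Of all autosomal protein-coding genes 43.6% had such a peak. Of 4 myeloid markers, Cd68 on chromosome 11 had one (76.3).

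ELF1 belongs to the ETS transcription factors, which recognise DNA around a GGAA core and occupy many promoters of broadly expressed genes. Lymphocytes express it, and there ETS factors also act at distal regulatory elements. Mouse chromosome 11 is rich in genes and holds clusters of the Hoxb, type I keratin, Ccl chemokine, type 2 cytokine and alpha globin genes beside many single housekeeping genes.

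The sequences at the strongest promoter peaks on the chromosome are shown to compare them for the word CCGGAAG, a common form of the ETS site around the GGAA core, which 5 of the 6 hold. Each is a run of 101 bases from the RefSeq promoter table (GRCm38.p6, the same coordinates as mm10), read on the strand of the gene, with CCGGAAG on either strand in capitals. They span chr11:98438939-98439039, minus strand for Mien1, chr11:120151302-120151402, minus strand for Slc38a10, chr11:120624965-120625065, minus strand for Sirt7, chr11:5788383-5788483, plus strand for Dbnl, chr11:84819476-84819576, minus strand for Mrm1 and chr11:69913906-69914006, plus strand for Gps2.
Mien1 promoter: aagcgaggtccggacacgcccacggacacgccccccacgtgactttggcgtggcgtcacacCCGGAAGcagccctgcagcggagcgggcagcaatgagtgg
Slc38a10 promoter: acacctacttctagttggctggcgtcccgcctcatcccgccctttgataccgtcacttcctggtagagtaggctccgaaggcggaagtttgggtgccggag
Sirt7 promoter: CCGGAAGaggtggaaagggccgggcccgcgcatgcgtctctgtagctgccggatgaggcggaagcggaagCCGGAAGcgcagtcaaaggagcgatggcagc
Dbnl promoter: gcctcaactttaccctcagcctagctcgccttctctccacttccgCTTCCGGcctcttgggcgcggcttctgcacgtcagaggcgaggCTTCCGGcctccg
Mrm1 promoter: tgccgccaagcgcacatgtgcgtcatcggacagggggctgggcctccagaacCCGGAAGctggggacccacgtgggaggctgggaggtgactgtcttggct
Gps2 promoter: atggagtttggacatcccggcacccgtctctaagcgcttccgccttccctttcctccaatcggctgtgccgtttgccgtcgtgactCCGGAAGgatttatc
The word occurred 2 times in the windows of Sirt7 and Dbnl, 1 time in those of Mien1, Mrm1 and Gps2, and 0 times in that of Slc38a10, where the summit lay 16 bp beyond the table's last base. Of 1271 protein-coding genes of the chromosome with a promoter in that table, 164 (12.9%, 95% exact interval 11.1% to 14.9%) held the word within their 300 bases, against 12.2% (11.7% to 12.7%) of 15185 genes on the other autosomes.

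The strongest distal peaks of the older mm9 list looked different. They are shown because no mm10 genome was used here, as 101 bases around the summit on the plus strand of mm9. They lie at chr11:48647917-48648017, 3 kb from the nearest coding transcript start, that of Trim7, and at chr11:106874174-106874274, 13.4 kb from that of Kpna2. The capitals mark GTTCGANNC on either strand, the core of the B box, an internal promoter element of tRNA genes. This word was sought after the strongest distal peaks had been seen.
distal peak nearest Trim7: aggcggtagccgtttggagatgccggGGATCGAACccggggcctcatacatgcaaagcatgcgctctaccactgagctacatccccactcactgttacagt
distal peak nearest Kpna2: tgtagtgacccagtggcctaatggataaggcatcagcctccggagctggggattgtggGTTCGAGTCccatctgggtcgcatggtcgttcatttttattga
Neither run holds CCGGAAG. Their signals in the mm9 list were 2808 and 2663, on a scale of that list's own. The ranking there is not that of the optimal list, whose strongest distal peak lay inside Myo18a and not at a tRNA gene.

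Chromosome 11 had the highest peak density of the 19 autosomes. It held 27.5 optimal peaks per Mb, while the 18 other autosomes ranged from 7.61 on chromosome 14 to 14.8 on chromosome 19, with a median of 11.05. Against the other autosomes pooled (25317 peaks, 10.8 per Mb) this was 2.54 times as many, although the chromosome made up 4.95% of the autosomal length. It is rich in genes, with 1596 protein-coding genes and 13.1 per Mb, behind chromosome 7 with 13.9. Per protein-coding gene it had 2.10 peaks against 1.35 on the other autosomes, a ratio of 1.56, and chromosome 16 came close with 2.03 peaks per gene. Each replicate gave the same picture: 3363 of the 29086 strongest entries of replicate 1 and 3295 of those of replicate 2 lay on chromosome 11, more than on any other autosome. The summit of the median peak lay 1.96 kb from the next one, against 2.51 kb (chromosome 16) to 6.58 kb (chromosome 13) elsewhere.

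**Figure D1:**
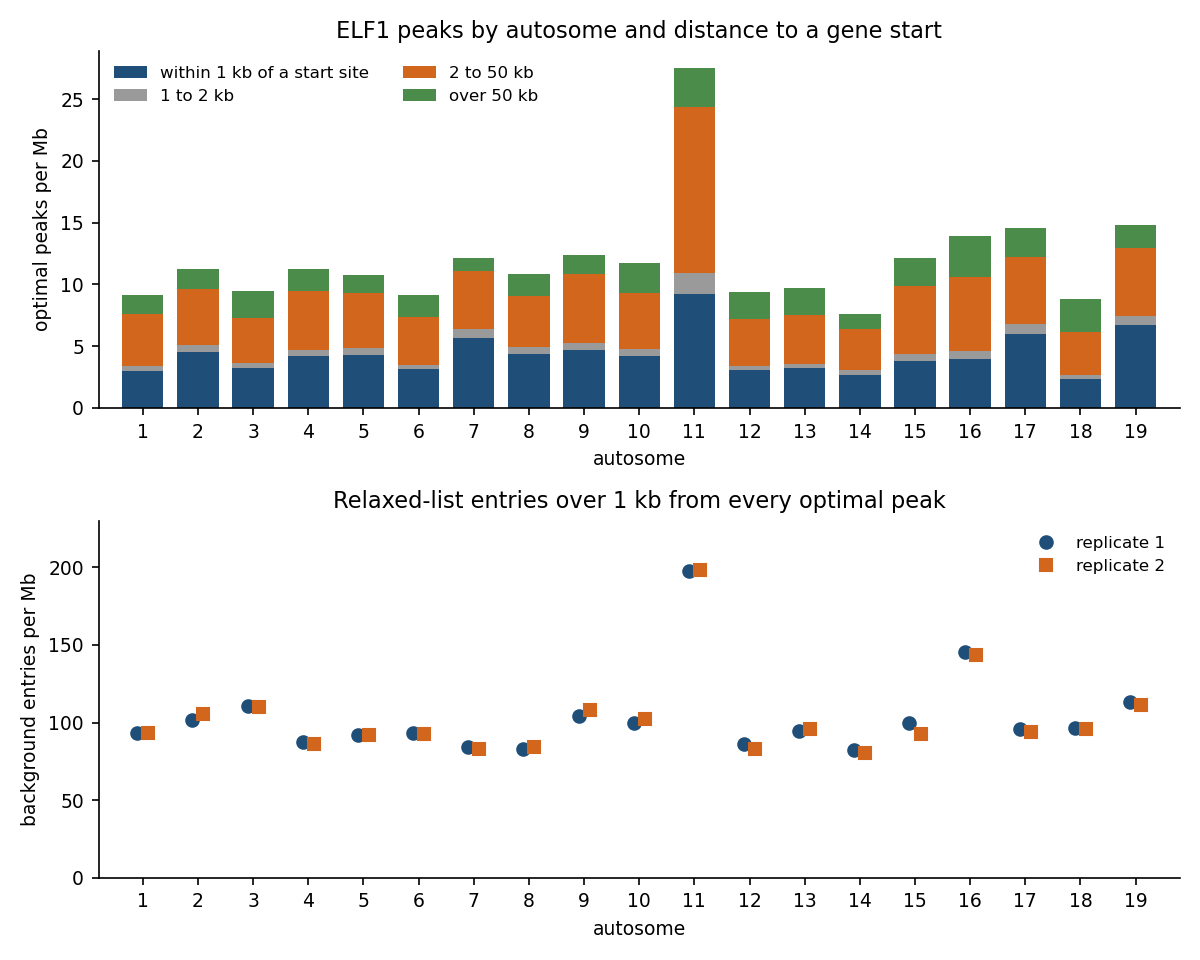
Upper panel: optimal ELF1 peaks per Mb (vertical axis) on each autosome, stacked by distance from the summit to the nearest protein-coding start site; lower panel: entries per Mb of each replicate's relaxed list over 1 kb from every optimal summit, with 1 point per replicate. Chromosome 11 stands at 27.5 peaks per Mb against at most 14.8 elsewhere, and at 198 background entries per Mb in both replicates against at most 146.

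Background entries were dense there too. The relaxed lists hold 300000 entries per replicate, peaks and background alike. Of those over 1 kb from every optimal summit, replicate 1 had 198 per Mb on chromosome 11 and replicate 2 also 198, against 82.1 to 146 and 80.6 to 144 on the other autosomes, where chromosome 16 was next. The ratio to the other autosomes pooled was 2.05 ± 0.00712 (SD, n = 2), and 1.84 for entries over 5 kb away. The median signal of these entries was also the highest of the autosomes, 4.25 in replicate 1 (others 3.89 to 4.12) and 4.72 in replicate 2 (others 4.48 to 4.64). Set against this background, chromosome 11 had 13.9 optimal peaks per 100 background entries in each replicate, rank 3 of 19, against 11.2 on the other autosomes pooled in each and 15.2 and 15.5 on chromosome 17. The DNA copy number of the chromosome in this line was not analysed here. Its part and that of the background in the peak density were not tested.

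Peaks 1 to 50 kb from a start site were in larger excess than promoter peaks. Of the 3357 peaks, 1129 (33.6%, 95% exact interval 32.0% to 35.3%) had the summit within 1 kb of a protein-coding start site, 207 lay 1 to 2 kb away, 1629 (48.5%, 46.8% to 50.2%) were distal, 2 to 50 kb away, and 392 (11.7%) lay farther. The distal share was the highest of the 19 autosomes, the others giving 37.0% to 46.1%, while the promoter share was thirteenth. Distal peaks were 3.01 times as dense per Mb as on the other autosomes, the few peaks at 1 to 2 kb 3.37 times, promoter peaks 2.33 times and peaks beyond 50 kb 1.69 times. Per gene the ratios were 1.84 for distal, 2.06 for 1 to 2 kb, 1.43 for promoter and 1.04 for farther peaks. For peaks beyond 50 kb chromosome 16 was denser, with 3.34 per Mb against 3.22. Of the distal peaks, 882 (54.1%, 51.7% to 56.6%) lay inside a protein-coding gene, against 52.7% (51.8% to 53.7%) elsewhere, so the intervals overlapped. Within 1 kb of an end of a noncoding gene lay 8.59% of distal peaks, against 8.30%.

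More of the genes were bound. A peak within 1 kb of a start site was found at 877 of 1596 protein-coding genes (54.9%, 95% exact interval 52.5% to 57.4%), while 43.6% of all autosomal protein-coding genes were bound. The chromosome was chosen by its peak count, so these shares describe it and are no separate evidence. The other autosomes ranged from 35.2% on chromosome 7 to 50.3% on chromosome 8, whose interval (47.2% to 53.4%) overlapped that of chromosome 11. Genes were then split by the word CCGGAAG in their RefSeq promoter. Of those with it, 152 of 164 were bound (92.7%, 87.6% to 96.2%), against 85.9% (84.3% to 87.5%) on the other autosomes. Of those without it, 587 of 1107 were bound (53.0%, 50.04% to 56.0%), against 37.8% (37.0% to 38.7%). The bound genes with the word had a median promoter signal of 271 (214 to 301), and those without it 92.5 (80.1 to 105). On the other autosomes the medians were 208 (201 to 217) and 76.4 (73.2 to 79.3).

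The ETS word was somewhat rarer under the peaks. In the mm9 list, 351 of the 2180 peaks of chromosome 11 (16.1%, 95% exact interval 14.6% to 17.7%) held CCGGAAG within 50 bp of the summit, against 19.04% (18.4% to 19.7%) on the other autosomes, seventeenth of 19 in a range of 14.7% to 22.2%. Equally long windows centred 500 bp to the left and right of the summits held it in 0.757% and 0.896% of cases. Among promoter peaks the shares were 22.6% (19.9% to 25.4%) and 27.6% (26.6% to 28.6%), and among distal peaks 10.5% (8.64% to 12.7%) and 11.7% (10.9% to 12.6%). The core GGAA alone, which also lies within CCGGAAG, was present at 90.2% of the summits and 66.7% of the side windows. The tRNA word GTTCGANNC, seen in both distal runs printed above, was present within 50 bp of 1.49% of distal summits (0.817% to 2.49%) and in 1.01% of their side windows.

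The peaks were unevenly spread along the chromosome. Cut into 24 segments of 5 Mb up to 120 Mb, with the last 75 peaks beyond them, it held 340 peaks in segment 24 (115 to 120 Mb), 312 in segment 20 (95 to 100 Mb) and 257 in segment 21 (100 to 105 Mb). No segment of the other autosomes had more than 212, the value of 80 to 85 Mb on chromosome 10, and 4 segments of chromosome 11 exceeded it. Among the stronger 50% of the peaks the densest segment was segment 20 instead, with 32.0 per Mb. Segment 24 was led by peaks at the helicase gene Recql5 (signal 511) and Tmem94 (504), segment 20 by Mien1 (591) and Snf8 (506), and segment 21 by the ribosomal gene Rpl27 (515) and the endosomal GTPase gene Rab5c (457). The fewest peaks lay in segment 8 (35 to 40 Mb), with 16, segment 6 (25 to 30 Mb), with 32, and segment 3 (10 to 15 Mb), with 38. Strong sites existed there as well. Segment 6 held the Ppp4r3b promoter peak, at a protein phosphatase 4 subunit gene (501), and that of Cfap36 (442). Segment 8 held those of the pantothenate kinase gene Pank3 (272) and of the arginyl-tRNA synthetase gene Rars (272). In segment 3 the strongest peaks were not at promoters, with signals of 205 and 162 at 39.7 and 68.0 kb from Spata48.

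**Figure D2:**
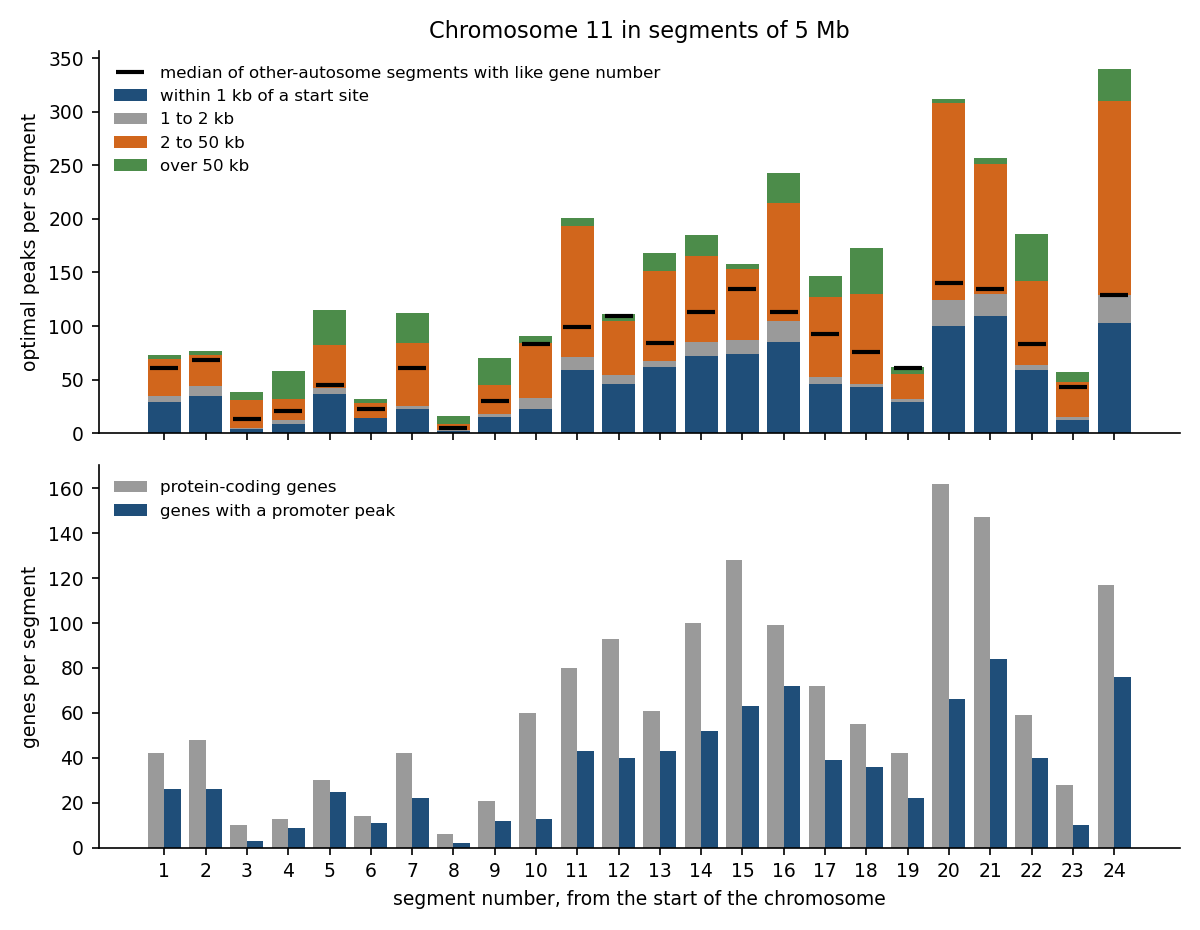
Upper panel: optimal peaks in each 5 Mb segment of chromosome 11 (horizontal axis, segment number), stacked by distance to a start site, with a black bar at the median of segments of the other autosomes whose gene number was within 25%; lower panel: protein-coding genes and genes with a promoter peak in the same segments. Segments 24, 20 and 21 reach 340, 312 and 257 peaks, and all 24 segments stand above their black bar.

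Segments with more genes held more peaks, on chromosome 11 and elsewhere. Across the 24 segments peaks and genes had a Pearson correlation of 0.865, and across the 465 segments of the other autosomes 0.724. Neighbouring segments and both replicates share the libraries, so these are descriptions. Each of the 24 segments held more peaks than the median of other-autosome segments whose gene number was within 25% of its own. The ratio had a median of 1.95 and ran from 1.02 to 3.56, and 6 segments lay above the highest such segment. Background entries exceeded the same kind of median in 23 of 24 segments in each replicate, with median ratios of 1.84 and 1.88. Segment 1 was the exception, with 86.8 background entries per Mb in replicate 1 and 73 peaks against a median of 61. Its first 3 Mb hold no sequence in mm10, so both values come from a shorter stretch than the 5 Mb they are counted over. Among segments with at least 80 genes, the 8 of chromosome 11 had a median of 44.4 peaks per Mb and the 56 others 24.5, none above 42.4. Leaving out the 3 densest segments, which held 909 peaks (27.1%), left 22.9 peaks per Mb, above the 14.8 of chromosome 19.

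**Figure D3:**
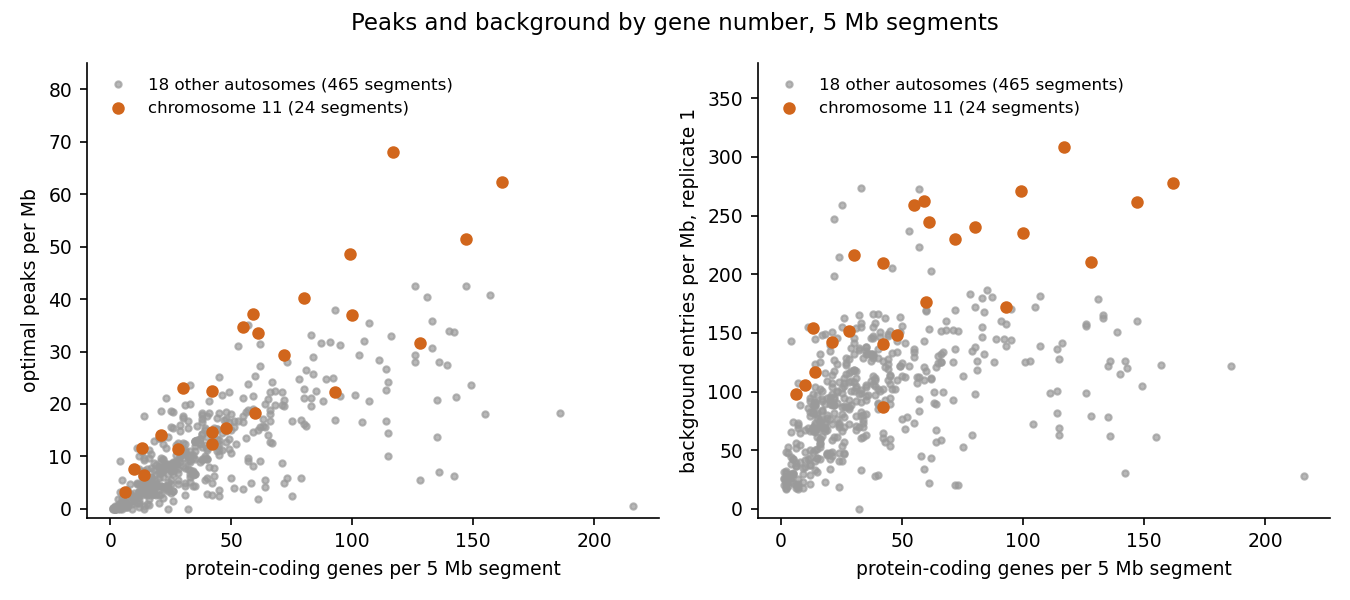
Each point is a 5 Mb segment, with protein-coding genes on the horizontal axis and optimal peaks per Mb (left) or background entries per Mb of replicate 1 (right) on the vertical axis, for chromosome 11 (24 segments) and the 18 other autosomes (465 segments). Most chromosome 11 points lie on the upper side of the cloud in both panels, with a highest value of 68.0 peaks and of 308 background entries per Mb.

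The signal of a typical peak was ordinary, while the density ratio to the other autosomes pooled was higher among strong peaks. The median signal of promoter peaks was 65.9 (95% order-statistic interval 60.9 to 73.2) against 66.7 on the other autosomes, and that of distal peaks 33.8 (32.5 to 35.4) against 33.6. The density ratio to the other autosomes was 2.55 for peaks with a signal of at least 50, 2.73 at 200, 3.20 at 300, 3.54 at 400 and 4.41 at 500, where 17 peaks stood against 74. Per Mb, chromosome 11 was highest at 400, with 0.509 against 0.296 on chromosome 16, the next, and at 500, with 0.140 against 0.0918. The number of strong peaks per gene was not compared between single chromosomes. By the share of genes with a promoter peak of at least 400 or 500, chromosome 16 stood above chromosome 11. A promoter peak of at least 400 lay at 4.45% of its genes, against 4.20% on chromosome 11. One of at least 500 lay at 1.19% against 1.07%, where chromosome 11 had rank 3. Chromosome 11 held 20 of the 100 strongest peaks of the list and 143 of the strongest 1000. At the other end, 420 of its peaks fell in the weakest decile, of which they made up 14.4% (13.2% to 15.8%), against 10.1% to 12.2% of the other deciles. The 3 weakest members had signals of 5.77 to 5.79 near the floor of the list at 5.76, and lay nearest to Irf1, Mgat1 and Hoxb13.

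**Figure D4:**
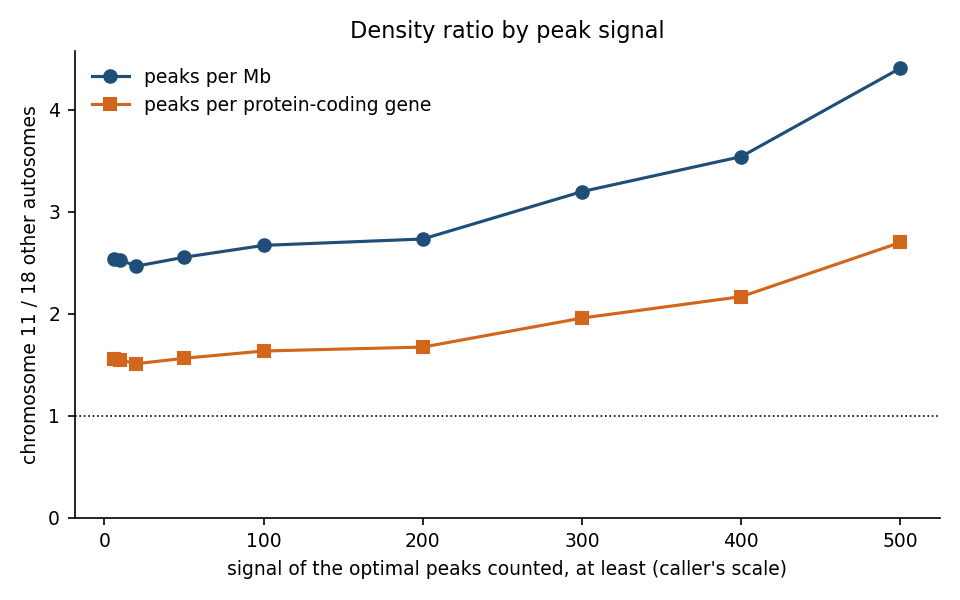
Ratio of chromosome 11 to the 18 other autosomes (vertical axis) in peaks per Mb and in peaks per protein-coding gene, among optimal peaks with at least the signal on the horizontal axis. The ratio per Mb lies near 2.54 among all peaks and reaches 4.41 at a signal of 500, where only 17 peaks of chromosome 11 remain.

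The strongest peak of the chromosome lay at the start of Mien1, the gene of a small protein beside Erbb2 linked to cell migration, with a signal of 591 in the optimal list, 298 in replicate 1 and 297 in replicate 2. It spanned chr11:98438783-98439146, with the summit 30 bp from the start and 1 ETS word in the run shown above. Slc38a10, of an amino acid transporter family, had 587 (299 and 292 in the replicates, in that order). Sirt7, a nuclear deacylase gene, had 562 (255 and 308) and 2 words in its run. Both replicates were high at all of these sites. Dbnl, for an actin-binding adaptor, had 554 (259 and 296). Mrm1, a mitochondrial rRNA methyltransferase gene, had 522 (253 and 268), and Gps2, for a subunit of a nuclear corepressor complex, 518 (280 and 237). The next were Rpl27 of the large ribosomal subunit (515), the recombination gene Rad51d (514), Recql5, whose peak also lies at Sap30bp (511), Vps53 of a Golgi tethering complex with Tlcd3a (509), Hgs of the endosomal sorting machinery with Arl16 (506) and Snf8 of the same machinery (506). The summits of these 12 peaks lay 5 to 65 bp from a start. The last 6 had 224 to 248 in replicate 1, and replicate 2 gave 264 to 284.

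The strongest distal peak, with a signal of 571 (281 and 289 in the replicates), lay at chr11:77793299-77793614 inside Myo18a, an unconventional myosin gene, 4.83 kb from the nearest start used. The next lay at chr11:107012742-107013041, with a signal of 538 (258 and 282) and the summit inside the tRNA gene n-TRccg1. A peak inside Tom1l2, an endosomal trafficking gene, had 527 (240 and 289). That nearest to Sar1b, a coat GTPase gene, at 41.7 kb, had 452 (210 and 241), that inside the tRNA gene n-TWcca5 442 (210 and 232) and that nearest to Hs3st3a1, a heparan sulfate sulfotransferase gene, at 38.7 kb, 412 (172 and 242). Beyond 50 kb the strongest were 68.7 kb from the replication protein gene Rpa1 (362), inside the tRNA gene n-TTcgt3 (360), inside the protein kinase C gene Prkca (278) and inside the RNA-binding protein gene Msi2 (254), where an end of the noncoding gene 0610039H22Rik lies 431 bp away. All 10 of these were present in both replicates.

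With tRNA genes at 3 of these 10 sites, the tRNA genes of the chromosome were counted, a comparison chosen after these values were seen. Of 47 tRNA genes in the RefSeq table, 30 (63.8%, 95% exact interval 48.5% to 77.3%) had an optimal summit within 200 bp of their middle, against 190 of 339 (56.0%, 50.6% to 61.4%) on the other autosomes. The intervals overlapped. In 23 of the 30 the summit lay inside the tRNA gene. The 30 peaks had a median signal of 337 (56.5 to 538), and those of the other autosomes 291. The strongest apart from the 3 named above were those at n-TKctt27 (434; 198 and 240 in the replicates) and n-TCgca54 (406; 176 and 231).

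The listed genes of basic cell functions on the chromosome were bound in nearly every case. The ribosomal and proteasome lists were taken by gene name family. The other lists of such functions hold single genes picked with earlier results of these data known, and not every gene of the function. All counts of the gene lists stand against 54.9% bound of all protein-coding genes of the chromosome. Of 283 genes in the 17 lists looked at, the clusters described last included, 93 were bound (32.9%). All 7 cytosolic ribosomal protein genes had a promoter peak, with a median signal of 324 against 186 over 69 bound of 75 elsewhere. Rpl27 had 515, Rpl38 485 (235 and 252 in the replicates), Rpl19 391 (188 and 202) and Rpl26 324 (155 and 170), while Rpl23a had 28.2 (9.48 and 16.04). The group thus ran from weak to among the strongest. All 11 mitochondrial ribosomal protein genes were bound (median 180 against 152 over 66 of 67), led by Mrps23 (467), Mrpl10 (413), Mrpl27 (388) and Mrpl22 (357). All 8 proteasome genes were bound (median 245 against 174 over 31 of 34), led by the core subunit gene Psmb3 (479), Psmd3 (322), Psmc5 (256) and Psmd11 (250). All 8 genes picked for the respiratory chain and ATP synthase, assembly genes among them, were bound. Their signals ran from 92.8 at the assembly gene Cox11 to 395 at Ndufaf8, with Uqcr10 (315), Uqcrq (270) and Sco1 (267) between. Of 12 genes listed under splicing 10 were bound, led by Cwc25 (460), Aatf (450), Slu7 (432) and the helicase gene Dhx8 (410), and Srsf1 and Srsf2 were not. Aatf is a transcription cofactor gene rather than a splicing gene, and these counts include it.

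Of 16 genes picked for replication, repair and cell division, 15 were bound. The list also held Nbr1, an autophagy receptor gene, which was bound through the peak it shares with Brca1. Rad51d had 514, the replication licensing gene Cdc6 416 (190 and 225 in the replicates), and the head-to-head genes Brca1 and Nbr1 had a single peak of 410 (181 and 230). Lig3, a DNA ligase gene, had 266. The mitotic kinase gene Aurkb was unbound, with 11 distal peaks 2 to 50 kb away, the strongest of which (337) lay at the tRNA gene n-TSgct3.

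The lymphocyte genes picked were mostly bound, with lower signals. Of 24, 18 had a promoter peak (median 99.5, 26.6 to 297) and 23 a distal one within 50 kb. Of all protein-coding genes of the chromosome 54.9% had a promoter peak and 72.5% such a distal one, and of all autosomal ones 43.6% and 49.8%. The strongest were at Dock2, a guanine nucleotide exchange factor of lymphocyte migration (297; 142 and 155 in the replicates), Rel of the NF-kB family (261; 117 and 144), Cd79b of the B cell receptor (257; 106 and 153) and the adaptor gene Grb2 (179; 74.3 and 108). Replicate 2 was higher at each. Among those with none were Tcf7, Pik3r5, Skap1, Tbx21 and Ikzf3, though Tcf7 had 8 distal peaks. At the type 2 cytokine locus, Rad50 (96.1), Irf1 (74.2), Il4 (73.6) and Kif3a (44.4) were bound, and Il13, Il5, Csf2 and Il3 were not, with 8 to 14 distal peaks near each of these.

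Most of the gene clusters looked at on the chromosome had few bound members, against 54.9% of all its genes. The only bound members were Olfr462 (signal 23.1) of 83 olfactory receptor genes, Krt222 (102) of 50 genes of type I keratins (27) and keratin-associated proteins, and Ccl6 (26.0) of 11 Ccl chemokine genes. Of 6 sarcomeric myosin and 5 alpha globin genes 0 were bound, while all 5 globin genes and 5 of the myosin genes had distal peaks. Of all genes of the chromosome 72.5% had a distal peak within 50 kb. Shares were also high for Slfn (8 of 8), Ccl (10 of 11), Hoxb (9 of 10) and immunity-related GTPase genes (5 of 6). They were lower for the keratin list (32 of 50), Cd300 genes (4 of 11) and olfactory receptor genes (13 of 83). Hoxb4 (169) and Hoxb6 (43.4) were bound of 10 Hoxb genes, Cd300lf (167) and Cd300e (31.8) of 11 Cd300 genes, and Irgm1 (48.2) and Irgm2 (31.1) of 6 immunity-related GTPase genes. Of 8 Slfn genes 4 were bound, Slfn2 (188), Slfn3 (104), Slfn8 (35.2) and Slfn1 (17.6), a share near that of all genes. A peak near several genes of a cluster counts for each of them, so members are not independent.

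The replicates ranked the peaks of the chromosome much as elsewhere, with somewhat fewer shared. A summit among the 29086 strongest entries of each replicate lay within 100 bp of 1996 of the 3357 peaks (59.5%, 95% exact interval 57.8% to 61.1%), while 62.8% of all autosomal optimal peaks did. The other autosomes ranged from 58.3% on chromosome 12 to 66.5% on chromosome 7. In the full relaxed lists 2731 were matched in both replicates (81.4%), the lowest share of the 19 autosomes, the others giving 83.5% to 88.6%. The lower sharing appeared in both classes: 72.9% (70.2% to 75.5%) of promoter peaks against 75.5% (74.6% to 76.3%) elsewhere, and 53.2% (50.7% to 55.6%) of distal peaks against 56.6% (55.7% to 57.6%), with intervals that overlapped for promoter peaks. Among the strongest decile 99.4% were shared, against 99.8% elsewhere. The gap was widest in the seventh decile, 44.1% against 52.0%. It was small in the eighth, 20.1% against 20.5%, and in the weakest, 0.476% against 0.407%. Over the matched peaks the median signal was 19.6 in replicate 1 and 28.2 in replicate 2. The log2 difference, replicate 2 minus replicate 1, had a median of 0.41 here and elsewhere, and an SD of 0.71 against 0.68. Log2 signals correlated at 0.857 here and elsewhere (Pearson, across 2731 peaks that share 2 libraries). The scales of the lists are not given and can differ.

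Single sites differed much more between the replicates. Among matched peaks, those at Npm1, the nucleophosmin gene (28.2 in replicate 1 and 4.16 in replicate 2), Chac2 (57.4 and 8.60), Kansl1 of a histone acetyltransferase complex (26.4 and 5.55) and Derl2 with Mis12 (24.3 and 5.17) were highest in replicate 1 relative to replicate 2. Those nearest to Ubald2 (3.24 and 42.9), Tob1 (3.12 and 31.2) and Grb7 (4.34 and 43.2) and at Nr1d1, a clock repressor gene (3.30 and 32.8), were highest in replicate 2. All 8 had signals of 22.5 to 60.9 in the optimal list, far below the strongest sites.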

How the data were processed

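ELF1 ChIP-seq of 2 biological replicates of CH12.LX was deposited as narrowPeak lists. Per the deposited README text, the authors made relaxed lists of each replicate and of both pooled from mm10 alignments and a control, and took the optimal and conservative lists from them by the irreproducible discovery rate; the mm9 list came from mm9 alignments. The sources used here do not name the aligner, the caller or their versions. Column 7 of the deposited lists is the authors' peak signal, on a scale not given, used to rank and describe peaks. The lists hold no read depth, and all intervals cover counting error only.

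Summits are the start plus column 10. Start sites were the 5′ ends of protein-coding genes in a RefSeq table (GRCm38.p6) and their starts in the RefSeq promoter table, 32202 sites in all. Strand came from the promoter table for 17491 genes and from GENCODE M1 by name for 4031, of 21791; the rest were left out. Table rows placed before 3 Mb of an autosome lie on scaffolds and were left out. The mm9 list was read with GENCODE M1 and NCBIM37 sequence. Segments under 4 Mb were not used. No test was run, since the members and gene lists were chosen with earlier results of these data known; shares have exact binomial (Clopper-Pearson) and medians order-statistic intervals at 95%. Genes named were the 12 strongest promoter, 6 distal and 4 farther peaks, 3 segments with most and fewest peaks with 2 peaks each, in each list the 4 strongest bound members, and every bound or unbound member where these were at most 5, the 3 weakest peaks and the 4 with the largest replicate difference each way; members named beyond these, and the counts without Nbr1, were chosen after their values were seen. The motif share was computed on the mm9 list, for which sequence was given. The choice of all start sites of a gene was made after the lists were seen. Distance, matching and interval functions were tested on simulated data. Python 3.11.15, numpy 2.4.6, pandas 2.3.3, SciPy 1.17.1 and matplotlib were used. Alternatives are in the closing section.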

Additional observations from a re-analysis of the deposited data

How the results depend on the processing

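Chromosome 11 had the highest peak count of the autosomes in the optimal, conservative and mm9 lists and with either replicate alone, and the densest segment in each setting tried for it. Its count was 3093 in the conservative list, 3295 to 3363 without 1 replicate, 1660 in the stronger 50% of peaks (11.4% of them) and 2180 in the shorter mm9 list (11.6%). The density ratio was 1.56 per protein-coding gene and 2.12 without the 3 densest segments, and that of background entries was 1.84 beyond 5 kb. The promoter share was 27.8% with 500 bp, 39.8% with 2 kb, 46.3% in the stronger peaks, 29.2% with a single 5′ end per gene and 35.9% with noncoding starts added. The share of genes bound was 51.8%, 57.7%, 46.1% and 51.3% under the first 4 of these, and 40.4%, 44.8%, 34.4% and 39.4% on the other autosomes. The median promoter signal was 74.95 in the conservative list, 80.3 with 500 bp, 56.9 with 2 kb and 119 in the stronger peaks, and the distal one 36.4 in the conservative list and 64.2 in the stronger peaks. The share of peaks found in both replicates was 67.7% of conservative peaks, 51.1% at 50 bp, 64.7% at 200 bp and 94.4% of the stronger peaks, and 71.0% to 76.0% when only 1 replicate had to hold the peak. The densest segment had 68.0 peaks per Mb, 66.8 to 67.0 without 1 replicate, 32.0 in the stronger peaks and 44.3 in segments of 10 Mb. It lay at 115 to 120 Mb in the optimal list and with either replicate alone, but at 95 to 100 Mb in the stronger peaks, 100 to 110 Mb in segments of 10 Mb and 97.5 to 102.5 Mb with the start shifted by 2.5 Mb. The stronger list holds fewer peaks by construction; the cause of the other moves was not tested. Of 56 alternatives, 28 stayed within the interval, within the SD of the 2 replicates for the background ratio, or within 1.5 times. For the background ratio either replicate alone always lies within that SD, so leaving out 1 replicate is no check there. A change of direction was looked for only in the density ratios of peaks and of background entries, and none was seen there. The chromosome's offset from the other autosomes in the log2 replicate difference was 0.000648 (-0.0246 to 0.0335) at 100 bp. It was -0.0136 at 50 bp and -0.00316 at 200 bp, within that interval but of the other sign. For single gene lists, 46 of 51 alternatives stayed within 1.5 times. Lists with all or nearly all members bound could not rise by that much, so the wider window could not move them. The single 5′ end, noncoding starts, length from the first entry and the densest segments were added after seeing the data. No paired analysis was possible because there was 1 group.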
